A study of Mus musculus with 40 samples.

Results

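The clone aC3 is a line of YUMM2.1 mouse melanoma cells in which the Bmal1 gene (official symbol Arntl) was cut with CRISPR-Cas9, and it is compared here with the uncloned YUMM2.1 line that it came from. The comparison used 4 of the 40 libraries of the series: the 2 libraries of aC3 with an empty lentiviral vector (YUMM2.1KO-EV) and the 2 libraries of YUMM2.1 with the same empty vector (YUMM2.1-EV), chosen by their column names in the deposited count table. YUMM2.1 was derived from a transgenic mouse tumor carrying, among its lesions, BrafV600E, loss of 1 copy of Cdkn2a and a stabilized β-catenin, so every group shared these lesions. Both EV groups carried the vector with GFP and were sorted for GFP. The study also put full-length Bmal1 (WT) or Bmal1 from which the domain that binds DNA, the basic helix-loop-helix, was deleted (dHLH) into both backgrounds, and the resulting 12 libraries in 6 groups of 2 were fitted together so that they shared 1 estimate of the spread.

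aC3 is 1 clone, grown from 1 sorted cell, and its control is a population and not a control clone. A change made by the loss of Bmal1 and a change that the founding cell already carried, or that came with cloning, therefore cannot be told apart. The labels give no time of collection. A passage of the study's methods derives both the aC3 EV and the YUMM2.1 EV cells from lines with a luciferase reporter driven by the Bmal1 promoter. The labels of the libraries do not mention this reporter. The study calls the 2 libraries of a group biological replicates, but the labels do not say that they came from separate cultures, so the p-values measure only the spread between these libraries.

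One uncertainty over labels touched every value. The study's own materials give in 2 ways which of 2 control libraries is YUMM2.1-EV replicate 2 and which is YUMM2.1-WT replicate 1, so each result was computed as the library labels have it and again with these 2 labels exchanged, which brought in 1 more library. Over the 14673 genes tested, the log2 values of YUMM2.1-EV replicate 1 correlated with those of YUMM2.1-WT replicate 1 at r = 0.984 and with those of its labelled partner, YUMM2.1-EV replicate 2, at r = 0.966. The 2 YUMM2.1KO-EV libraries correlated at r = 0.983. Total counts of the 12 libraries ran from 9097676 to 11356803, and a level of 1 CPM (the count scaled to a library of fixed size) corresponded to 8.23 to 11.9 counts.

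At an adjusted p below 0.05 (quasi-likelihood F-test of edgeR, adjusted by Benjamini-Hochberg; such genes are named called below), 63 genes were higher in YUMM2.1KO-EV than in YUMM2.1-EV, 0.429% of those tested, and 177 were lower, 1.21%. With the labels exchanged, 301 genes (2.05%) were higher and 471 (3.21%) lower. Under both labellings 58 genes were called higher and 175 lower. In none of these genes did libraries of the clone overlap the controls, so a lack of overlap does not set any of them apart. The lower genes had the larger changes: their median log2 difference was 1.78 in size, and 80 of them differed by at least 4-fold, against a median of 0.92 and 4 such genes among those that rose. The count depended on both YUMM2.1KO-EV libraries, since 59 genes were called as labelled without replicate 1 and 54 without replicate 2, which leaves that group with 1 library assumed to vary like the others.

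Bmal1 and its partner Clock form a heterodimer of basic helix-loop-helix proteins that binds E-boxes and drives the genes of its own repressors, the Period and Cryptochrome proteins. It also drives the nuclear receptors Rev-erbα and Rev-erbβ (Nr1d1 and Nr1d2), which repress Bmal1 through the element that the activating ROR receptors bind. Output regulators of the PAR bZIP family (Dbp, Tef) and their competitor Nfil3 act on a further element, the D-box. The windows shown are a choice of 5 that hold 1 of these elements, because the results below are ordered by these 3 arms. The windows of the called genes Nr1d1, Nr1d2, Rora and Dbp held none of the 3, nor did the first Arntl start, while those of Per1, Ciart, Bhlhe41 and a second Tef start, not shown, held an E-box. Each runs from 250 bases before to 50 bases after a transcription start of the RefSeq annotation (GRCm38.p6), 5′ to 3′ on the gene's strand, with exact matches in capitals. The letters searched on both strands were CACGTG for the E-box, TTATGTAA for the D-box and TAGGTCA for the ROR core, and no 2 matches overlapped. A second Arntl start (chr7:113207261-113207560, plus strand) has a ROR core 30 bases after the start.
Arntl: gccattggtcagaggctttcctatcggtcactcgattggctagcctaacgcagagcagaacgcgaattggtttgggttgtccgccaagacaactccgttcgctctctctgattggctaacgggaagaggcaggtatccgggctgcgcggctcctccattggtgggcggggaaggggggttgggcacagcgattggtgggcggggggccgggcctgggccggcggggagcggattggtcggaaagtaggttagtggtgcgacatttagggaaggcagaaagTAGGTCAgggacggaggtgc
The Nfil3 window (chr13:52980990-52981289, minus strand) has the core on the opposite strand, read as TGACCTA, 12 bases before the start.
Nfil3: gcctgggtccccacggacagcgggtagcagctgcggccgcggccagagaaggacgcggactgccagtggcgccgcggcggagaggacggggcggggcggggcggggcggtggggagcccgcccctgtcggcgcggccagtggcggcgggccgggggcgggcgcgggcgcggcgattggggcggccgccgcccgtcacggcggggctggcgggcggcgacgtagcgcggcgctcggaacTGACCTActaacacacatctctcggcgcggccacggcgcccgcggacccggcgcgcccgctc
The Per3 window (chr4:151044616-151044915, minus strand) has 2 D-boxes, 205 and 158 bases before the start.
Per3: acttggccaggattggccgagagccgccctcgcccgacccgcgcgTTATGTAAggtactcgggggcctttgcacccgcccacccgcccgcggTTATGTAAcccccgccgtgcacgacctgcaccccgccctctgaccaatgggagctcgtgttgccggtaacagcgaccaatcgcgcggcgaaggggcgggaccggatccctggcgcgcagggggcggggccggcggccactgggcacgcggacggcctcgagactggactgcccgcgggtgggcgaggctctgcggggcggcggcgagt
The first Tef window (chr15:81802423-81802722, plus strand) has an E-box 127 bases before the start.
Tef: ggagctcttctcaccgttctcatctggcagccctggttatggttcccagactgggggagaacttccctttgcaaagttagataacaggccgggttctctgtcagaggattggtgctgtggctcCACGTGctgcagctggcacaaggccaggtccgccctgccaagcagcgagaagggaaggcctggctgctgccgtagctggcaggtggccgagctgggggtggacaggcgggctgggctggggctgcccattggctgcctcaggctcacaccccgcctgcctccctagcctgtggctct
The Cry1 window (chr10:85185005-85185304, minus strand) has an E-box 60 bases before the start.
Cry1: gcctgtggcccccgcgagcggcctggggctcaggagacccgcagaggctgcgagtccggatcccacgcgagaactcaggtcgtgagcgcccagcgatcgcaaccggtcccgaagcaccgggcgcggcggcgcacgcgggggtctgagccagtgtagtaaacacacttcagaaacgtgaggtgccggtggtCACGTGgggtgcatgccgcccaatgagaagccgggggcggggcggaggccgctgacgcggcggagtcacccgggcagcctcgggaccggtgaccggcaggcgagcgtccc
Among all 32851 promoters of that table, 7.15% held the E-box letters, 0.938% the D-box letters and 2.61% the ROR core. Of the 28 genes in 5 lists of clock genes, 22 had a promoter in the table, 5 of these with an E-box. The E-box letters stood at 13 of the 123 genes called lower under both labellings that had a promoter (10.6%) and at 11.7% of such genes among all those tested. A match is only a description of these letters in a 300-base window.

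Arntl, the targeted gene (chr7:113207465-113314126), was higher in the clone. It had 370 and 329 counts in YUMM2.1KO-EV against 192 and 129 in YUMM2.1-EV, and 163 in the exchanged library. The clone's libraries lay above all 3 controls, with a mean of 32.4 ± 1.83 CPM (SD, n = 2) against 15.1 ± 1.47 CPM, a log2 difference of 1.10 ± 0.22 (SE, adjusted p = 0.0289; 0.00661 exchanged). The libraries read the 3′ end of transcripts and not the cut site, so this level neither checks the edit nor gives the protein, and reads of 1 overlapping gene may enter it. The Arntl call was lost without any 1 of the 4 libraries (adjusted p up to 0.224). Clock, the partner of Bmal1, had a log2 difference of −0.05 (adjusted p = 0.922), and Arntl2, a paralog of Bmal1, one of 0.75 (adjusted p = 0.58).

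The Period genes, whose proteins repress the heterodimer, were the first arm in which the clone stood low. Per2 (chr1:91415982-91459324) had 12 and 13 counts in the clone against 105 and 74 in YUMM2.1-EV. This was a 7.21-fold difference, −2.85 ± 0.40 on the log2 scale (adjusted p = 0.00408). Per3 (chr4:151003652-151044665) stood at 8.73 and 7.08 CPM against 34.6 and 29.5 CPM, 4.05-fold lower (adjusted p = 0.000578). In both genes all control libraries were several times above the clone, and both calls were kept with the labels exchanged (adjusted p = 0.000702 and 1.65e-05). Per2 lost its call without either YUMM2.1KO-EV library (adjusted p up to 0.0818). Per1 had 3.73 and 3.31 CPM against 6.54 and 4.89 CPM, and was called only with the labels exchanged (log2 difference −1.04, adjusted p = 0.0473).

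The Cryptochromes, the partners of the Period proteins, were not called lower under either labelling. Cry1 had 28.0 and 24.6 CPM in the clone against 12.6 and 19.2 CPM. Its log2 difference of 0.73 missed the threshold as labelled (adjusted p = 0.184) and passed it with the labels exchanged (0.96, adjusted p = 0.0193). Cry2 had a log2 difference of −0.45 (adjusted p = 0.41).

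In the nuclear receptor arm both Rev-erb genes were lower. Nr1d1 (chr11:98767932-98775333) measured 1.91 and 2.17 CPM in the clone against 15.2 and 20.9 CPM, an 8.76-fold difference and the largest among the called clock genes (log2 difference −3.13 ± 0.30, adjusted p = 0.000439). Nr1d2 (chr14:18204054-18239127) measured 19.7 and 22.9 CPM against 70.7 and 69.2 CPM, 3.29-fold lower (adjusted p = 0.000474). The control levels were far above the clone in every library. Rora (chr9:68653786-69388246), which encodes an activating receptor of the same element, fell from 28.2 and 26.5 CPM to 14.4 and 13.98 CPM (log2 difference −0.95, adjusted p = 0.00938). Rorb had a log2 difference of 0.22 (adjusted p = 0.391).

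Among the output regulators, the activators of the D-box were lower and the repressor was higher. Dbp (chr7:45705088-45710203) had 7.46 and 8.12 CPM against 26.7 and 25.7 CPM, 3.36-fold lower (log2 difference −1.75 ± 0.14, adjusted p = 0.000439). Tef (chr15:81802421-81826863) had 47.6 and 40.3 CPM against 99.0 and 110.7 CPM, 2.38-fold lower (adjusted p = 0.000439). Nfil3 (chr13:52967209-52981073), the bZIP repressor that competes for the D-box, went the other way. Its levels were 16.5 and 13.9 CPM in the clone and 5.62 and 4.995 CPM in YUMM2.1-EV, 2.85-fold higher (log2 difference 1.51 ± 0.22, adjusted p = 0.00442). Bhlhe40 (chr6:108660629-108666925), a helix-loop-helix repressor of E-boxes, fell from 56.8 and 40.8 CPM to 23.2 and 24.1 CPM (log2 difference −1.05, adjusted p = 0.00571), while its paralog Bhlhe41 had a log2 difference of −0.19 (adjusted p = 0.9). None of the kinases and ligase subunits that modify clock proteins was called.

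**Figure D1:**
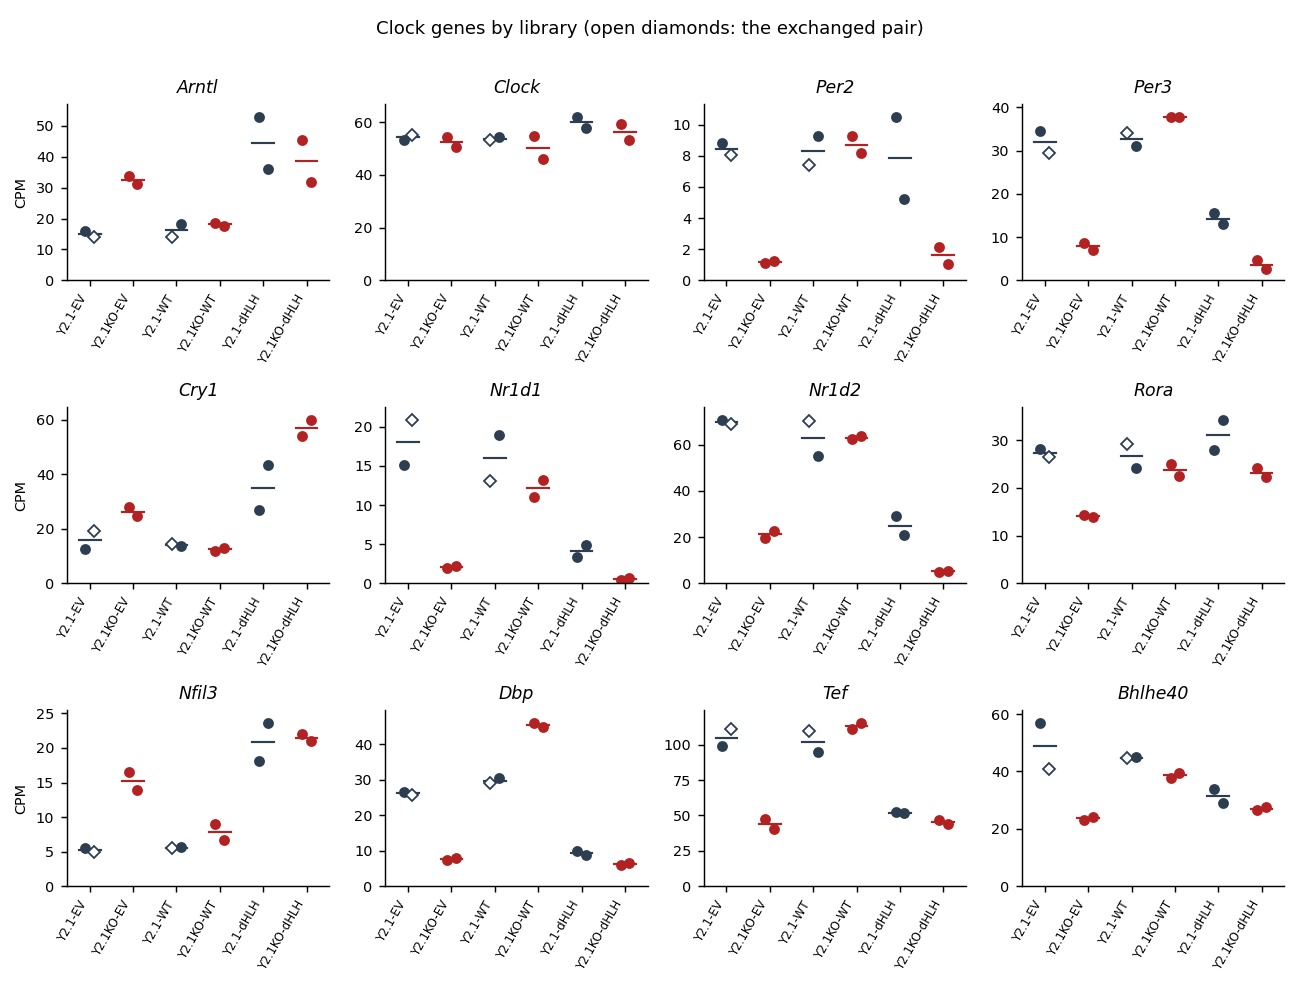
Level of 12 clock genes in CPM (vertical axes, linear, from 0) in each library of the 6 groups, with YUMM2.1 in dark and YUMM2.1KO in red, bars for group means (n = 2) and open diamonds for the 2 libraries whose labels may be exchanged. In YUMM2.1KO-EV, Per2, Per3, Nr1d1, Nr1d2, Dbp and Tef lay below every YUMM2.1-EV library and Arntl and Nfil3 above, while the 2 YUMM2.1KO-WT libraries had Per2 at 9.28 and 8.15 CPM.

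Over the 5 clock lists, 26 genes were tested and 10 were called as labelled, 2 higher and 8 lower, which stands beside 0.429% and 1.21% of all genes. With the labels exchanged 3 were higher and 9 lower. Of the 10 genes, Per3, Nr1d1, Nr1d2, Dbp and Tef stayed called without any 1 of the 4 libraries, and the other 5 lost the call without at least 1 of them. Of the called genes, 7 (Arntl, Per3, Nr1d1, Rora, Dbp, Tef and Bhlhe40) overlap another gene, and the strand setting of the counting is not given in the sources used here.

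The levels in the clone carrying full-length Bmal1 show the same genes in the same background with another vector. In YUMM2.1KO-WT, Per3 measured 37.7 and 37.7 CPM, Nr1d2 62.4 and 63.6 CPM and Dbp 46.0 and 44.8 CPM, all above both YUMM2.1KO-EV libraries. Nr1d1 was at 11.1 and 13.3 CPM there and Tef at 110.8 and 115.1 CPM. Arntl had 18.5 and 17.8 CPM and Nfil3 8.99 and 6.68 CPM, both below the YUMM2.1KO-EV libraries. The sources used here do not say whether reads of the vector's own Bmal1 were counted under Arntl, in these or in the dHLH groups. Where the clone and the line both carried full-length Bmal1, the log2 difference with the labels exchanged was 0.01 for Per2 (adjusted p = 0.989) and −0.71 for Nr1d1 (adjusted p = 0.0592), while Dbp was higher in the clone by 0.69 (adjusted p = 0.00764). As labelled the differences were 0.07, −0.39 and 0.61, and none of the 3 genes was called (adjusted p = 0.968, 0.635 and 0.0652). The test of the difference between the EV and the WT comparisons passed as labelled for Per3, Nr1d1, Nr1d2, Dbp and Tef (adjusted p = 0.0207, 0.0295, 0.0257, 0.00086 and 0.0207) and missed the threshold for Per2 (adjusted p = 0.118). With the labels exchanged Per2 passed as well (adjusted p = 0.00671). The single clone is on both sides of this contrast, so it compares what the vectors did in the clone and in the line, and selection or handling after transduction is part of it.

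With the mutant that lacks the DNA-binding domain, Per2, Per3, Nr1d1 and Nr1d2 were again lower in the clone than in the line, by 2.27, 1.96, 2.82 and 2.26 on the log2 scale (adjusted p = 0.00128, 0.000102, 0.000394 and 1.44e-05). Cry1 was higher by 0.70 (adjusted p = 0.037). The study reports that dHLH disrupted the clock of the YUMM2.1 line and lowered Dbp, Nr1d1 and Nr1d2 in it. Per3 averaged 14.3 CPM in YUMM2.1-dHLH against 32.1 CPM in YUMM2.1-EV, and Per2 7.85 against 8.42 CPM. The reference line under dHLH thus differed from that of the EV comparison. The output genes differed less between clone and line there: Dbp by −0.58 (adjusted p = 0.0155), Tef by −0.20 (adjusted p = 0.269) and Nfil3 by 0.05. For Dbp, Tef, Nfil3, Bhlhe40 and Arntl the EV and dHLH comparisons themselves differed (adjusted p = 0.00375, 0.00207, 0.0072, 0.0307 and 0.0158).

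Outside the clock, a group of genes had almost no reads in the clone. Of the genes called lower under both labellings, 35 had at most 3 counts in each YUMM2.1KO-EV library, and no gene called higher was at that floor in both YUMM2.1-EV libraries and the exchanged one. Of the 35, 33 were protein coding, and 17 stayed at or below 3 counts in all 6 libraries of the clone, whichever vector it carried. In all 6 YUMM2.1 libraries 32 were above 3 counts. This partly follows from the choice, which required reads in YUMM2.1-EV under both labellings. A population with a few expressing cells and a line with little RNA per cell cannot be told apart in such bulk libraries.

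Mt2 (chr8:94172664-94173568), a metallothionein that binds zinc and copper, had 0 and 0 counts in the clone against 130 and 281 in YUMM2.1-EV. Taking 3 counts per library as the floor, it was at least 74.4-fold lower (37.7-fold with the labels exchanged), and the clone with full-length Bmal1 had 1 and 0 counts. Ak4 (chr4:101419277-101466995), a mitochondrial adenylate kinase, was at 0 in all 6 libraries of the clone against 113 and 121 counts, at least 40.6-fold lower. Adm (chr7:110627661-110629820), which encodes the vasodilator peptide adrenomedullin, had 0 and 0 counts against 53 and 55, at least 18.7-fold lower. These 3 genes were absent from the clone's EV libraries at this depth and well counted in both controls. Atp1b1, a subunit of the sodium pump, had 0 and 0 counts against 35 and 69 (at least 18.7-fold lower, 7.77-fold exchanged), and Wtip 0 and 0 against 46 and 42 (at least 15.1-fold). Atp1b1 lost its call without YUMM2.1-EV replicate 2 (adjusted p = 0.0559) and without either library of the clone, and Mt2 without either library of the clone (adjusted p up to 0.0608). Ly6c1, at least 12.7-fold lower (5.48-fold exchanged), has near-identical copies and is uncertain, and it was not called against the shNC pair described below (adjusted p = 0.0803) or without YUMM2.1-EV replicate 2 or either library of the clone.

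Dlk1 (chr12:109452823-109463336), an imprinted gene for a membrane protein related to Notch ligands, had 1 and 0 counts in the clone against 162 and 58. The ratio of normalized counts was 225-fold lower with a 95% counting interval of 39.9 to 8910, which covers counting error only. Trim47, a ubiquitin ligase, had 1 and 0 counts against 45 and 114 (162-fold, 28.7 to 6450), and Rcn3, a calcium-binding protein of the endoplasmic reticulum, 1 and 0 against 42 and 85 (130-fold, 22.9 to 5160). After the exchange these ratios were 68.1 (11.9 to 2730) and 64.4 (11.2 to 2580), and that of Dlk1 was 284. Both lost their calls without either library of the clone, and Trim47 also without YUMM2.1-EV replicate 2 (adjusted p = 0.078). In the other direction Gda (chr19:21391307-21473445), a guanine deaminase, had 83 and 92 counts in the clone against 1 and 0 in YUMM2.1-EV, a ratio of 171 (30.4 to 6810). The exchanged control library held 5 counts of Gda, and the fitted difference with it was 30.2-fold.

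**Figure D2:**
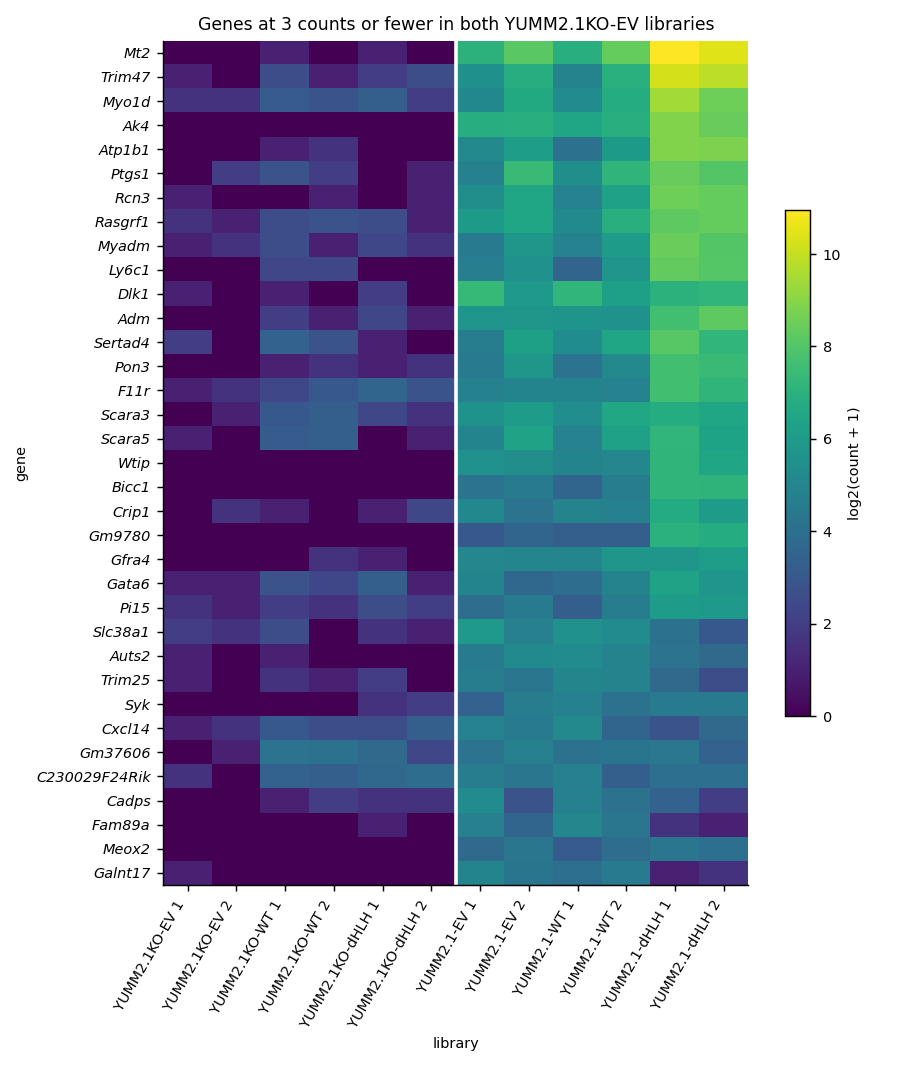
Heat map of log2(count + 1) for the 35 genes with at most 3 counts in both YUMM2.1KO-EV libraries (rows) in 12 libraries (columns, by group). The YUMM2.1KO-EV columns are near 0 by choice of the genes. That choice also required reads in YUMM2.1-EV under both labellings, so the filled YUMM2.1 columns partly follow from it. In the other 4 columns of the clone, 17 of the genes stay near 0 as well.

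Other genes fell without reaching the floor, among them several secreted and signalling proteins. Sema3d, a semaphorin that guides migrating cells, had 1.00 and 0.47 CPM in the clone against 13.2 and 9.99 CPM, 15.4-fold lower (log2 difference −3.95, adjusted p = 0.000439). Inpp4b, a phosphoinositide phosphatase, fell from 7.12 and 7.17 CPM to 1.18 and 1.13 CPM (−2.61, adjusted p = 0.00202). In both genes the clone lay several times below the controls. Among more abundant transcripts, the alarmin Il33 fell from 193.7 and 248.4 to 92.9 and 93.7 CPM (−1.24, adjusted p = 0.00116) and the growth factor Tgfb2 from 110.4 and 88.2 to 43.7 and 45.2 CPM (−1.16, adjusted p = 0.00207). Without either library of the clone these calls were kept. Chl1, a neural adhesion molecule, fell from 1207 and 1099 to 687.5 and 681.6 CPM (−0.75, adjusted p = 0.0115), and it lost the call without either library of the clone.

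The genes that rose did so by smaller steps. Ngfr, the low-affinity nerve growth factor receptor found on neural crest cells, stood at 761.6 and 730.7 CPM in the clone against 391.9 and 386.4 CPM (0.94, adjusted p = 0.00207). Aif1l, an actin-binding protein, had 51.3 and 47.4 CPM against 18.1 and 16.5 CPM (1.51, adjusted p = 0.00211), and Gstm7, a glutathione transferase, 16.3 and 22.0 CPM against 5.70 and 3.91 CPM (1.98, adjusted p = 0.00207). As in every gene called under both labellings, no library of the clone overlapped a control in these 3 genes. Plagl1, an imprinted zinc finger gene, rose by 2.04 (adjusted p = 0.0115), Fgd3, an activator of Cdc42, by 1.84 (adjusted p = 0.00314) and the synaptotagmin Syt13 by 1.39. Xlr3c (4.03, adjusted p = 0.0129) and Prl2c2 (1.62) also rose, but both have near-identical copies among which reads could be divided. Plagl1, Xlr3c and Prl2c2 lost the call without either library of the clone, Plagl1 and Prl2c2 also without YUMM2.1-EV replicate 2 and Prl2c2 without replicate 1, and Fgd3 without replicate 2 (adjusted p = 0.0508).

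Sox9, a transcription factor of neural crest and mesenchymal states, was lower in the clone by an amount that depended on 1 library. It had 36 and 47 counts (3.28 and 4.44 CPM) in YUMM2.1KO-EV. YUMM2.1-EV replicate 1 had 221 counts (18.5 CPM) and replicate 2 had 809 (87.9 CPM), while the exchanged library was at 19.98 CPM. The clone lay below all of these, with a fitted difference of 13.6-fold as labelled (adjusted p = 0.0369) and 4.99-fold exchanged (adjusted p = 9.6e-06). The call was lost without YUMM2.1-EV replicate 2 (log2 difference −2.26, adjusted p = 0.182) and without either library of the clone. Sox10, the factor of the neural crest and melanocyte lineage, measured 459.9 and 449.4 CPM against 506.1 and 487 CPM (−0.13, adjusted p = 0.741). Hif1a, the oxygen-regulated factor, measured 102.9 and 101.8 CPM against 123.7 and 110.2 CPM (−0.19, adjusted p = 0.495). Fn1, Col1a1, Klf4 and Axl passed the threshold only with the labels exchanged, at log2 differences of −0.76, −1.36, −0.68 and 0.48, and Myh9, Snai2, Twist2 and Lmo1 passed under neither labelling. Prrx2, a homeobox factor, also passed only with the exchange (adjusted p = 0.0854 and 0.00784). It had 0 and 0 counts in the clone against 8 and 36, at least 8.23-fold lower as labelled and 2.92-fold exchanged.

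The identity markers of the 2 lines were alike in kind. Of the melanocyte pigmentation genes, 6 were tested and none was called, Tyrp1, Dct, Mlana, Slc45a2 and Oca2 had no count in the 4 libraries, and Mitf, the master regulator of the lineage, had 154 and 128 counts against 174 and 132. The list as a whole was not silent: its summed level was 117.2 and 115.8 CPM in the clone and 120.8 and 129.6 CPM in YUMM2.1-EV, most of it from Gpnmb, a lysosomal glycoprotein, with 891 and 893 counts against 978 and 835. Of 16 neural crest genes tested, Ngfr rose and Sox9, Sox5 and S100b fell. Sox5 fell by 1.10 (adjusted p = 0.00938) and lost the call without either library of the clone. Of the immune markers 1 was tested, Cd68, with 13 and 12 counts in the clone and 17 and 19 in YUMM2.1-EV, and the summed level of the list was 2.64 and 1.89 CPM against 2.60 and 3.48 CPM, with 3 of 12 genes at 0. No epithelial marker was high enough to test. Of 3 endothelial markers tested, Flt1, a receptor of vascular growth factors, was lower (−0.64, adjusted p = 0.015), and this call was lost without YUMM2.1-EV replicate 2 or either library of the clone. The summed level of that list was 59.0 and 58.0 CPM against 87.7 and 90.8 CPM, mainly Flt1 itself, with Kdr, Tek and Cldn5 at 0. The muscle and neuronal markers summed to 203.9 and 205.8 CPM against 204.1 and 151.6 CPM, nearly all of it Tubb3, a neuronal β-tubulin that was not called, while the muscle genes Myod1, Myog and Ckm were at 0.

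Genes of the extracellular matrix were lower where they passed the test as labelled. Of 19 collagen genes tested 4 fell and none rose, beside 1.21% and 0.429% of all genes, with a list median of −0.39 on the log2 scale against 0.000589 over all genes. With the labels exchanged 7 fell and 1 rose (3.21% and 2.05% of all genes), and without YUMM2.1-EV replicate 2 only 1 fell. Col12a1 and Col15a1 fell by 2.77 and 2.00 (adjusted p = 0.0254 and 0.00721). Of 22 matrix glycoproteins and proteoglycans tested, 6 fell and none rose (median −0.33). The summed level of that list was nonetheless higher in the clone, at 39190 and 41980 CPM against 30070 and 35510 CPM in YUMM2.1-EV. The collagens summed to 1967 and 2013 CPM against 2094 and 2070 CPM. Bgn, the proteoglycan biglycan, had 9.19 and 12.1 CPM against 45.8 and 115.5 CPM (−2.92, adjusted p = 0.00674) and Mgp, an inhibitor of calcification, 0.55 and 0.76 CPM against 6.70 and 21.2 CPM (−4.39, adjusted p = 0.0104). YUMM2.1-EV replicate 2 was well above replicate 1 in both genes. Bgn, Mgp and Col15a1 lost the call without either library of the clone, and Col12a1 without either YUMM2.1-EV library or replicate 2 of the clone. Timp3, an inhibitor of matrix proteases, fell from 99.1 and 102.8 to 40.2 and 34.3 CPM (−1.44, adjusted p = 0.000723), and the gelatinase Mmp2 fell by 1.03 (adjusted p = 0.00674; 0.115 without replicate 1 of the clone). Of 20 genes of the mesenchymal state tested 1 fell, the repressor of epithelial genes Zeb1, from 51.8 and 55.9 to 25.9 and 27.1 CPM (−1.02, adjusted p = 0.00101), and with the labels exchanged 4 fell (Zeb1, Prrx2, Fn1 and Klf4) and Axl rose.

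Of 55 hypoxia-responsive genes tested, 4 fell and none rose: Adm, Ak4, Bhlhe40 and, named after its value was seen, Ero1l, an oxidase of the endoplasmic reticulum. The median of the list was −0.18, and with the labels exchanged 9 fell and 1 rose, where 1.21% and 3.21% of all genes were lower. Adm and Ak4 were the genes at 0 counts described above, and Bhlhe40 also belongs to a clock list. Among immediate-early and growth factor response genes, Egr1 and Egr2 fell by 1.44 and 1.82 (adjusted p = 0.0255 and 0.0106), Etv5 fell by 0.75 (adjusted p = 0.00211) and Fosl1, an AP-1 subunit, rose by 0.83 (adjusted p = 0.0396). The Egr1 and Fosl1 calls were lost without any 1 of the 4 libraries, the Egr2 call without either library of the clone and the Etv5 call without replicate 2 of the clone. Cytokine genes gave 3 lower calls and none higher among 17 tested, with Il33, Tgfb2 and Cx3cl1 (−2.08, adjusted p = 0.0312). This stands beside 1.21% and 0.429% of all genes, and the median of the list was 0.09. With the labels exchanged 4 were lower and 3 higher, beside 3.21% and 2.05% of all genes, at a median of 0.21. None of the 31 cell cycle genes, 17 receptor tyrosine kinases and their ligands, 12 β-catenin targets, 12 antigen presentation genes and 24 ATF4 targets was called as labelled. Of 26 genes of sterol and fatty acid synthesis tested, 2 rose and 1 fell, beside 0.429% and 1.21% of all genes. With the labels exchanged 1 rose and 1 fell, beside 2.05% and 3.21%. Mvk, the mevalonate kinase of sterol synthesis, rose by 0.85 (adjusted p = 0.0177) and was not called with the labels exchanged (adjusted p = 0.0998). As labelled, and apart from the Y-linked genes given below, the remaining lists had at most 1 call in each direction. This stands beside 1.21% of all genes lower and 0.429% higher, so that nothing is read from these lists. Of these, 1 of 25 MRTF-SRF targets, 1 of 17 MAPK feedback genes, 1 of 20 interferon-stimulated genes (Bst2, −1.02, adjusted p = 0.038) and 1 of 11 collagen hydroxylases and lysyl oxidases (Plod1, −0.90, adjusted p = 0.00366) fell, and 1 of 24 p53 targets rose (Ccng1, 0.58, adjusted p = 0.0493). Of 17 imprinted genes Plagl1 rose and Dlk1 fell, of 19 NRF2 targets and metallothioneins Mt2 fell, and none of 11 melanoma driver genes was called. With the labels exchanged, 4 of the 24 p53 targets were higher and none lower. Of the 25 MRTF-SRF targets 3 were then lower, and so were 3 of the 17 MAPK feedback genes, with none higher. The NRF2 list had 3 higher and 1 lower, the interferon list 1 and 2, and the imprinted list 2 and 2. Beside these counts stand 2.05% of all genes higher and 3.21% lower. Of the genes given last, Cx3cl1, Mvk, Bst2, Plod1 and Ccng1 lost the call without either library of the clone. Without YUMM2.1-EV replicate 2 Cx3cl1, Bst2 and Ccng1 lost it as well, and without replicate 1 Mvk did.

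**Figure D3:**
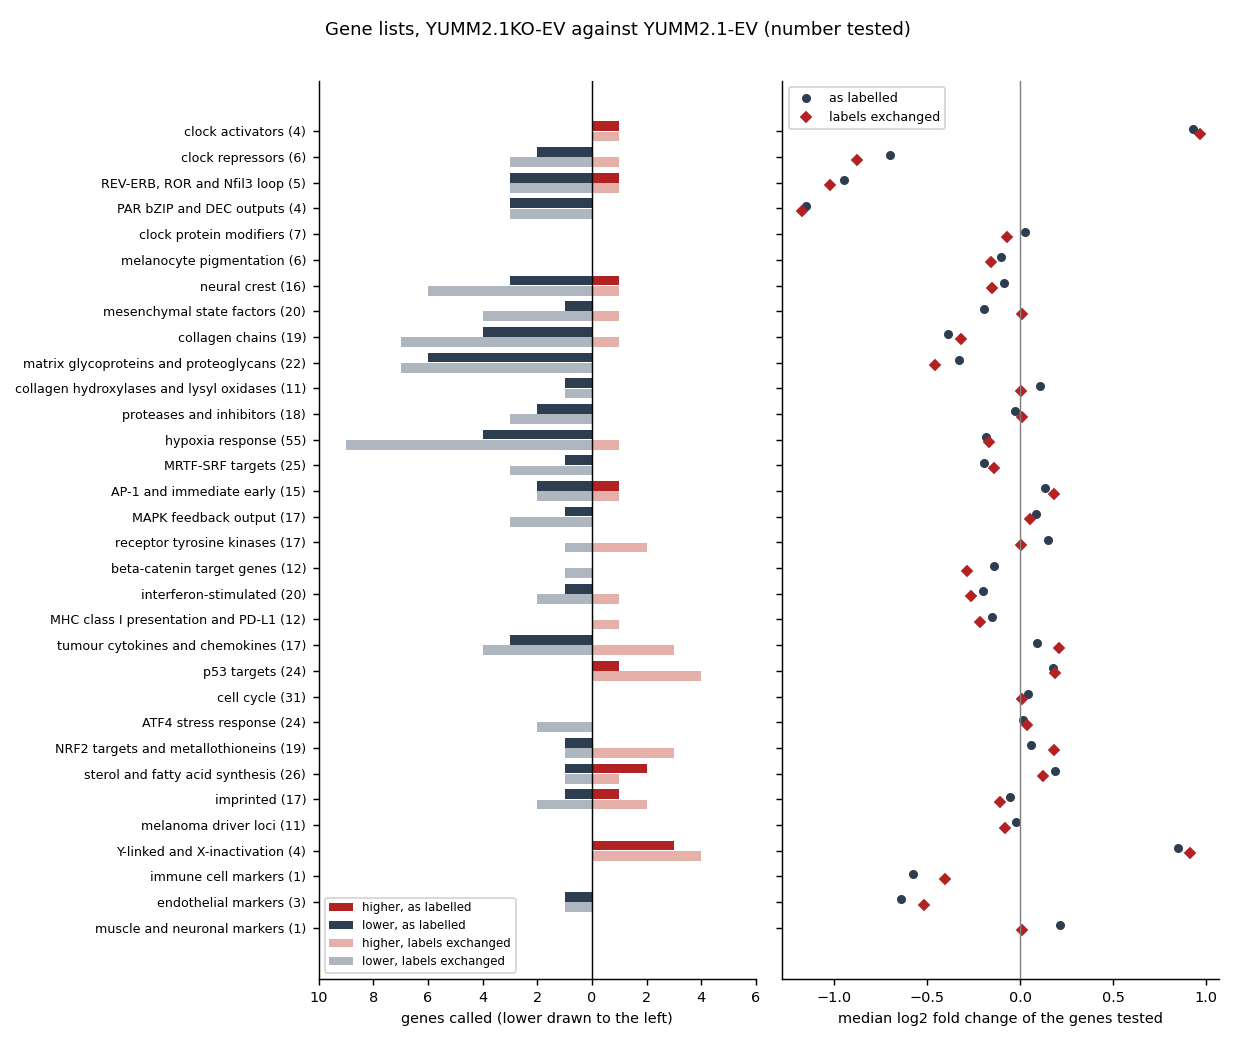
For each gene list, the number of tested members called higher or lower in YUMM2.1KO-EV and the median log2 difference of the tested members, as labelled and with the labels exchanged. The collagen list had 4 lower and 0 higher as labelled and 7 lower and 1 higher exchanged, and the cell cycle list had no call under either labelling.

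A further control was a pair of libraries of YUMM2.1-EV cells that also carried the hairpin shNC, a control for knockdowns made elsewhere in the series. It shares no library with YUMM2.1-EV, and its comparison uses the same 2 libraries of the clone, so the values are set side by side and not as a repeat. Against this pair 783 genes were higher in the clone (5.31%) and 889 lower (6.03%) of 14750 tested. Per2, Per3, Nr1d1, Nr1d2, Rora and Bhlhe40 were lower against it too, by 1.99, 0.91, 2.30, 0.79, 0.59 and 0.68 on the log2 scale (adjusted p = 0.00893, 0.0212, 0.000829, 0.01, 0.029 and 0.0137). Arntl was at 31.3 and 26.8 CPM in the shNC pair, close to the clone (log2 difference 0.12, adjusted p = 0.754). Nfil3 also did not differ detectably (0.06, adjusted p = 0.881), nor did Dbp (−0.50, adjusted p = 0.0891) or Tef (−0.31, adjusted p = 0.132). Of the 67 named genes called as labelled, 13 turned direction against this pair, among them Bgn (0.73), Mgp (0.61), Tgfb2 (0.33), Col15a1 (0.09), Etv5 (0.20) and Chl1 (0.71). The 2 controls thus placed the clone differently for much of the matrix group, in which 3 of the collagen genes were higher and 2 lower against the shNC pair, and for the neural crest list, with 6 higher and 1 lower. Sox9 was lower against both (−4.95 against shNC, adjusted p = 0.00199), and 26 of the 55 hypoxia genes were lower and 1 higher against shNC. Of the 24 ATF4 targets, none of which was called as labelled and 2 of which were lower with the labels exchanged, 14 were lower against shNC.

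**Figure D4:**
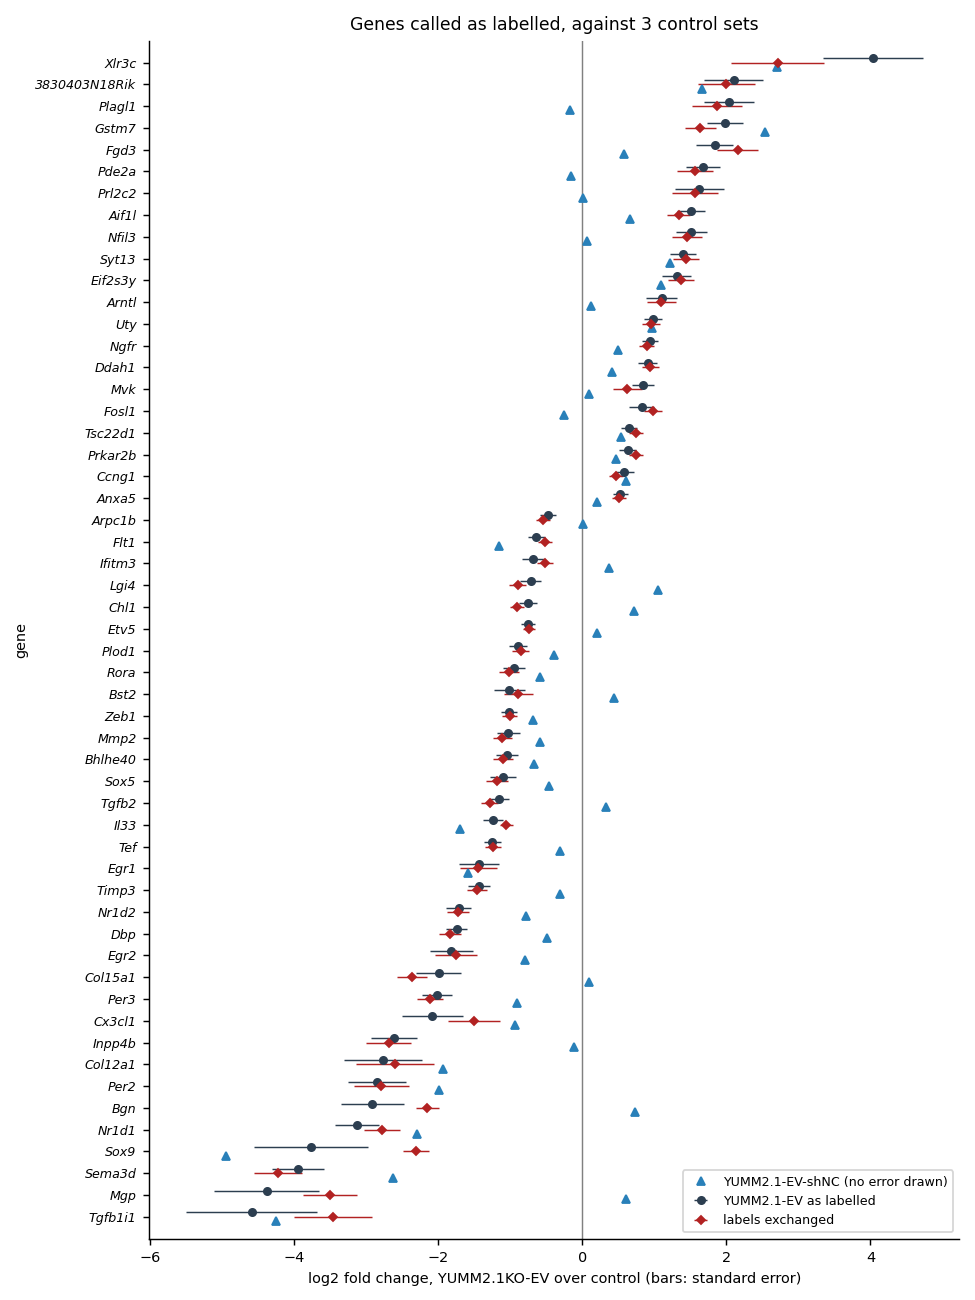
Log2 difference of YUMM2.1KO-EV from 3 controls for 54 genes called as labelled, with SE bars for YUMM2.1-EV as labelled and with labels exchanged and plain points for YUMM2.1-EV-shNC. Per2 lies at −2.85, −2.79 and −1.99, whereas Bgn moves from −2.92 as labelled to 0.73 against shNC.

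The other vectors place the genes of the EV comparison in the same 2 backgrounds. As labelled, the comparisons of the clone with the line under WT and dHLH share no library with the EV comparison, but every one uses the same clone. With full-length Bmal1 in both, 33 genes were higher (0.225%) and 56 lower (0.382%) in the clone as labelled, and 379 (2.58%) and 591 (4.03%) with the labels exchanged. With dHLH, 1820 were higher (12.4%) and 2080 lower (14.2%). Of the 177 genes lower in the EV comparison, 40 were also lower under WT, 22.6% of the first list and 71.4% of the second. Under dHLH 94 were lower, 53.1% of the first list and 4.52% of the second, while 45 were called in the opposite direction. Of the 63 higher genes, 11 were higher under WT (17.5% and 33.3%) and 32 under dHLH (50.8% and 1.76%), with 11 called opposite under dHLH. After the exchange the calls under dHLH fell about evenly on both sides: of 471 lower genes 183 were lower (38.9% and 7.29%) and 185 opposite, and of 301 higher genes 74 were higher (24.6% and 3.46%) and 99 opposite. Under WT 149 of the 471 were then lower (31.6% and 25.2%) and 37 opposite, and 42 of the 301 were higher (14% and 11.1%) and 20 opposite.

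A test of the difference between the EV and WT comparisons called 1 gene higher (0.00682%) and 10 lower (0.0682%) as labelled, and 392 (2.67%) and 343 (2.34%) with the labels exchanged. Besides the 5 clock genes given above, Inpp4b, Sema3d and Tgfb2 were among those lower as labelled, and Gnl3, a nucleolar GTP-binding protein, was the 1 higher. The test of EV against dHLH called 734 genes higher (5.0%) and 1051 lower (7.16%). The libraries of the uncloned line with dHLH stood farther from YUMM2.1-EV than the clone did, with r = 0.918 and 0.896 against YUMM2.1-EV replicate 1, where the 2 YUMM2.1KO-EV libraries gave 0.970 and 0.970. Against YUMM2.1-EV replicate 2 the values were 0.935 and 0.937 for dHLH and 0.958 and 0.954 for the clone.

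The genes were examined by chromosome because a clone can carry a gain or loss of a stretch of DNA. The median log2 difference of the genes of a chromosome lay between −0.04 and 0.09 on every chromosome but 2. Chromosome 16 had a median of −0.13 (−0.14 exchanged). The Y chromosome, with 9 genes tested, had a median of 0.72 (0.88 exchanged). Eif2s3y, a Y-linked translation factor subunit, measured 30.4 and 32.1 CPM in the clone against 12.7 and 12.5 CPM (1.31, adjusted p = 0.00704). Uty, a Y-linked histone demethylase, measured 54.7 and 46.4 CPM against 25.3 and 26.0 CPM (0.98, adjusted p = 0.00211). Ddx3y, an RNA helicase named after its value was seen, had 1253 and 1307 counts against 760 and 744 (0.72, adjusted p = 0.0255). In all 3 genes, as in every gene called higher under both labellings, the clone lay above both controls. Eif2s3y lost the call without either library of the clone, while Uty kept it without any 1 of the 4 libraries. Of 511 windows of 50 neighbouring genes, the median as labelled ran from −0.23 on chromosome 16 to 0.22 on chromosome 3. With the labels exchanged that window of chromosome 16 stayed at −0.23, and that of chromosome 3 was at 0.07.

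**Figure D5:**
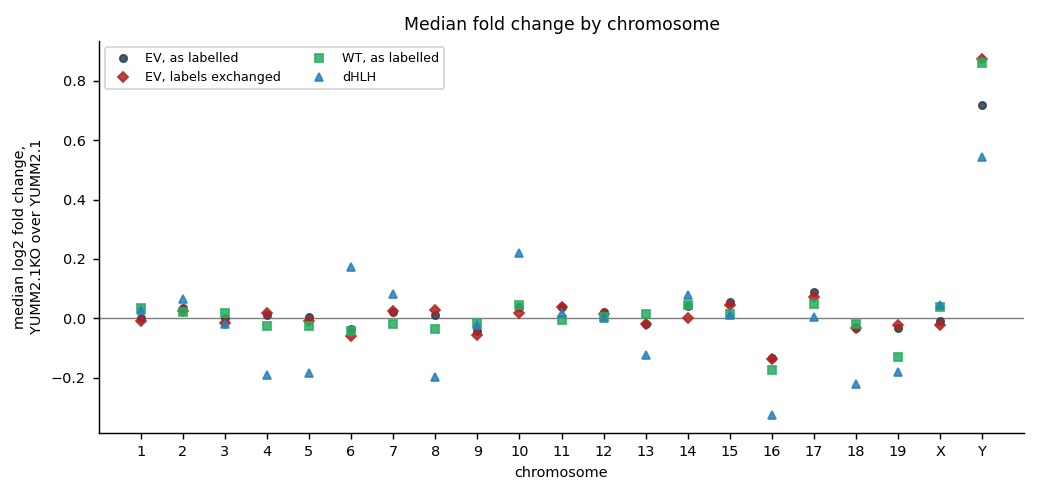
Median log2 difference of the tested genes of each chromosome between the clone and the uncloned line, for EV as labelled, EV with labels exchanged, WT as labelled and dHLH. In the EV comparison the Y chromosome lies at 0.72 and chromosome 16 at −0.13, and the other chromosomes lie within −0.04 and 0.09.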

How the data were processed

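RNA was extracted with TRIzol, and 3′ tag libraries (QuantSeq 3′ FWD, from 100 ng of RNA) were read as single 75-base reads. Per the study's methods, the authors aligned reads to mm10 with bowtie2 and counted genes with RSEM, whose version differs between the sources used here. The deposited values are estimated counts, written as whole numbers, for 51789 genes. The Ensembl release and the strand setting are not given in the sources used here. 3′ tags read the end of a transcript and cannot show an edit elsewhere in the gene.

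Symbols were taken from the mouse annotation given for the same build (99.63% of identifiers matched). Counts were normalized by TMM, low genes were removed with filterByExpr, and edgeR 4.0.16 (R 4.3.3) fitted quasi-likelihood models to 12 libraries in 6 groups. The contrasts were YUMM2.1KO against YUMM2.1 under EV, WT and dHLH and the differences between them, with Benjamini-Hochberg adjustment over the 14673 genes tested and a threshold of 0.05. The shNC comparison was fitted apart. The fit was also run on simulated counts, whose outcome is not given here. CPM uses the TMM library sizes of the 12 libraries. For the shNC pair CPM uses those of all 40 libraries, so its levels are on a slightly different scale, while its log2 differences come from its own fit. Depth was 9097676 to 11356803 counts per library, and a gene at 0 was given a floor of 3 counts per library. Ratio intervals are 95% and cover counting error only. A permutation test of 2 libraries against 2 cannot go below p = 0.333 and was not used. Alternatives were DESeq2 1.42.0, other filters and scalings, other sets of libraries, the replicate number as a block, and leaving out each library.

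The comparison and the 33 gene lists were chosen with earlier results of these data known. The 100 genes named by rule were all counted clock genes, 12 genes the study follows, the 12 protein-coding genes per direction with the largest change called under both labellings at a mean of at least 10 counts, the 5 per direction with the largest CPM difference, up to 2 per direction and list, and the top 3 per direction of each difference between comparisons. The 12 protein-coding genes per direction also had to show no overlap between the libraries of the clone and the controls. S100b, Ddx3y, Ero1l and the markers given by level fall outside the rule and were chosen after their values were seen. A few items that the rule or the labels name are not reported here.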

Additional observations from a re-analysis of the deposited data

Results flagged for a closer look

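The difference between the clone and the uncloned line was itself tested for a change with the vector (an interaction term in the same edgeR fit), and it differed between EV and WT for 11 genes and between EV and dHLH for 1785 genes. For the named genes, the values below are the log2 difference under EV minus that under the other vector, so that a negative value means that the clone stood lower, relative to the line, under EV. Between EV and WT the named genes were Per3 (−2.23), Nr1d1 (−2.74), Nr1d2 (−1.72), Dbp (−2.35), Tef (−1.40), Inpp4b (−3.29), Sema3d (−3.23), Gnl3 (1.04) and Tgfb2 (−1.54), with adjusted p from 0.00086 to 0.0295.

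Between EV and dHLH, negative values were found for Rorb (−1.31), Dbp (−1.17), Tef (−1.05), Bhlhe40 (−0.83), Sox10 (−3.15), Chl1 (−4.02), Arpc1b (−0.63), Lgi4 (−3.57), Ifitm3 (−0.99), Il33 (−1.97), Ngfr (−2.04), Sox5 (−2.21), Col12a1 (−2.71), Col15a1 (−5.48), Mgp (−3.51), Plod1 (−1.06), Egr2 (−3.64), Etv5 (−2.37), Bst2 (−2.17), Inpp4b (−3.88), Sema3d (−1.65), Tgfb2 (−3.17), Pnpla3 (−8.98), Galnt3 (−8.14) and Slain1 (−7.83). Positive values were found for Arntl (1.30), Nfil3 (1.46), Col1a1 (4.25), Klf4 (2.93), Snai2 (2.92), Axl (1.29), Gda (8.93), 3830403N18Rik (3.15), Plagl1 (2.35), Pde2a (2.2), Prl2c2 (3.21), Syt13 (1.46), Anxa5 (0.60), Prkar2b (1.55), Bgn (2.82), Fosl1 (1.39), Flt1 (0.56), 3300005D01Rik (9.32) and Gm14448 (9.30). Their adjusted p ran from 1.95e-06 to 0.0496. Several of these genes, Sox10 and Col1a1 among them, were not called in the EV comparison itself. Gda, 3300005D01Rik, Gm14448, Pnpla3, Galnt3 and Slain1 have libraries with few or no counts, so their fitted values depend on the prior count and are no bounds.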

How the results depend on the processing

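The number of genes called in the EV comparison, 240 as labelled, was 772 with the labels exchanged, 369 by DESeq2's Wald test, 720 with no filter on low counts, 390 with the replicate block, 812 with both exchange and block, 72 with the 4 libraries alone, 1495 with 4 libraries exchanged, 412 with all 40 libraries, 157 at a log2 difference of at least 1, 1672 against the shNC pair, 592 against EV and WT as one control and 54 to 282 with 1 library left out. The WT comparison, 89 as labelled, gave 970 exchanged, 229 by the Wald test, 563 with no filter, 209 with the block, 970 with exchange and block and 9 to 76 with 1 library left out. The difference of EV and WT, 11 as labelled, gave 735, 41, 165, 18, 762 and 1 to 13 in the same order. The difference of EV and dHLH, 1785, gave 3154 exchanged, 3188 with exchange and block and 988 to 2007 with 1 library left out, and the dHLH comparison, 3900, gave 2249 to 3568. The cause of these shifts was not tested.

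Same-numbered libraries of YUMM2.1KO-EV and YUMM2.1-EV had a correlation of −0.0874 in their deviations, so the numbers did not pair these 2 groups. Among the groups of the uncloned line the deviations correlated as labelled at 0.372 (dHLH and EV), 0.357 (EV and WT) and 0.171 (dHLH and WT). With the labels exchanged these values were 0.176, −0.0249 and −0.141.

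Directions turned mainly against the shNC pair, where log2 differences were 0.0127 for Arpc1b, 0.73 for Bgn, 0.43 for Bst2, 0.71 for Chl1, 0.0949 for Col15a1, 0.20 for Etv5, −0.25 for Fosl1, 0.37 for Ifitm3, 1.04 for Lgi4, 0.61 for Mgp, −0.16 for Pde2a, −0.17 for Plagl1, 0.33 for Tgfb2, −0.21 for Axl, 0.0441 for Clock, 0.34 for Col1a1, 0.57 for Galnt3, −0.41 for Gnl3, 1.24 for Pnpla3, 0.99 for Slain1, −0.28 for Snai2 and 0.42 for Sox10. With the labels exchanged, and with exchange and block or 4 libraries exchanged, Bhlhe41 was 0.32, 0.32 and 0.31 and the log2 fold change of Usp2 −0.0727, −0.0745 and −0.08042 (−0.0202 against one control), and Lmo1 was 1.58 and 1.57. With 1 library left out Bhlhe41 ran from −0.59 to 0.30, Usp2 from −0.11 to 0.15, Lmo1 from −2.19 to 1.60, Fbxl21 from −0.26 to 0.65, Btrc from −0.53 to 0.0902, Axl from −0.0665 to 0.51, Myh9 from −0.33 to 0.0275 and Galnt3 from −0.53 to 0.32. Over the alternatives for named genes, 1396 values kept direction and side of the threshold, 197 lost the call, 55 gained it and 41 turned. No scaling moved the median of all genes by more than 0.012. Genes below about 10 counts are limited by depth.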
